A study of Mus musculus with 9 samples.

Results

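Binding of the transcription factor Stat5b in mouse CD4+ T cells after 2 rounds of Th2 differentiation was compared with binding at 13 h of differentiation, with the IgG library of each stage as background. The regions compared were formed from the 6 deposited peak lists (Stat5a and Stat5b at 8 h, 13 h and 2 rounds, mm8 mouse build) by joining all peaks that overlapped by at least 1 bp. This gave 43771 merged regions in the whole series, of which 43766 were nuclear and were used, and 5 were mitochondrial and were left out. The series holds 9 chromatin immunoprecipitation and sequencing (ChIP-seq) libraries, 1 for each of Stat5a, Stat5b and IgG at each of the 3 stages. Its title gives the question as the part played by IL-2, through the IL-4 receptor alpha chain, in preparing T cells to become Th2 cells.

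Both groups were CD4+ T cells under Th2 differentiation, the early one taken at 13 h and the late one after 2 rounds. No genotype, strain, age, cytokine dose or length of a round was used here, and culture and treatment are given in the labels only by reference to a publication. Each group is 1 library per antibody, so every comparison is between libraries, not between conditions, and has no replicate check. Intervals are 95% intervals and cover counting error only: PCR copies cannot be told from separate molecules where reads carry no molecular identifier. The identity of the cells could not be checked from expression, since ChIP-seq gives no expression level. More Stat5b per bound cell and more cells with Stat5b bound cannot be told apart in such bulk samples.

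Stat5a and Stat5b are closely related proteins that are phosphorylated by Janus kinases when IL-2 and related cytokines engage their receptors, pair up, and bind DNA in the nucleus. The core of the site they bind is TTCNNNGAA. In CD4+ T cells they act on genes for cytokine signalling and its feedback, among them Cish and the Socs genes (inhibitors of cytokine signalling), Il2ra (the IL-2 receptor alpha chain), Bcl6 (a repressor that drives the follicular helper programme) and Bcl2 (an inhibitor of apoptosis). Cytokine-driven Stat5 activity is required for Th2 cells to open and use the Il4 locus.

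To show what this core looks like in a gene near the strongest signal, the RefSeq promoter windows of Cish and Bcl6 (build GRCm38.p6, 250 bases before to 50 after the start, read along the gene) are given with each TTCNNNGAA in capitals. The motif is its own reverse complement, so 1 strand covers both.
Cish promoter: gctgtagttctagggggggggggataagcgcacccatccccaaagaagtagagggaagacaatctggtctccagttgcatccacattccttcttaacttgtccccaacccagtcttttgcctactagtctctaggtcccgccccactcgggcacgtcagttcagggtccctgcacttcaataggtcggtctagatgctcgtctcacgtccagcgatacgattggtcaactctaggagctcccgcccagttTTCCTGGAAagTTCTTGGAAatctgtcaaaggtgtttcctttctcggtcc
Bcl6 promoter: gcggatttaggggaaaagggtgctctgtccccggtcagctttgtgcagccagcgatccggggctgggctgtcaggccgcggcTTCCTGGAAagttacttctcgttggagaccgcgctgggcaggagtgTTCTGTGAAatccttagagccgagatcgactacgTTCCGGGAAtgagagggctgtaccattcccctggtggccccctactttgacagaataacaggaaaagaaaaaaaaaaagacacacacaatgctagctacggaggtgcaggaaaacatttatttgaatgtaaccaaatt
The Cish window holds 2 copies and this Bcl6 window 3. Of 32851 promoter windows of 300 bases in the table, 8.30% hold at least 1 copy, 0.457% at least 2 and 0.0335% at least 3. A second Bcl6 window holds 1 copy, and those of Il2ra, Il4ra and Socs1 hold 0, which says only that these letters are not in these windows. The windows are in another build than the peaks and were not placed on them. Gene names attached to regions here are working labels from general knowledge of the mouse map, given after the values were seen. They were not looked up in an mm8 annotation, and no distance to a gene was measured.

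Mapped reads numbered 9036070 for Stat5b at 13 h and 7656900 after 2 rounds, and 7525521 and 5787254 for IgG. Levels are given as RPM, the number per 1000000 mapped reads of the library whose 5′ end falls in a region, per region and not per length. Distinct combinations of start and strand, called distinct starts, made up 62.7% and 64.4% of the Stat5b reads and 68.6% and 70.6% of the IgG reads. Reads of 24 bp beside those of 25 bp made up 49.7% of IgG at 13 h and 77.3% of IgG after 2 rounds, and 0 of either Stat5b library. Reads without a mismatch were 56.5% of Stat5b at 13 h and 62.1% after 2 rounds. In 32 regions, 1 start and strand held more than 50% of at least 20 reads in 1 of the 4 libraries, and these are called heaped.

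Stat5b reads were more concentrated in the regions after 2 rounds than at 13 h. The regions held 8.42% of Stat5b reads at 13 h and 19.8% after 2 rounds, a ratio of 2.35 (2.34 to 2.36). On distinct starts the shares were 7.50% and 18.5%, a ratio of 2.47 (2.46 to 2.48). IgG moved in the same direction, from 2.89% to 4.54%, a ratio of 1.57. Most of that came from heaped regions, for without them the IgG shares were 2.83% and 3.32%, a ratio of 1.17 (1.16 to 1.18), while the Stat5b ratio was again 2.35. In IgG without heaped regions the ratio was 1.05 (1.04 to 1.06) in 24 bp reads and 1.41 (1.40 to 1.43) in 25 bp reads, so the 2 kinds of IgG read differ. What the 25 bp reads of IgG after 2 rounds hold was not tested. Because the merged regions include peaks found in the Stat5b library of 2 rounds itself, these shares favour that library. The ratio in regions of the 3 Stat5a lists, which were drawn from other libraries, was 2.15.

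Over the 37083 regions with Stat5b reads at both stages, the median log2 ratio was 1.37, or 2.58-fold, with quartiles of 0.62 and 2.24, and 86.6% of these regions lay above equality. For IgG the median log2 ratio was 0.38, with 59.9% of 27867 regions above equality. For Stat5a between the same stages it was 0.32. Both medians are the values that equal read counts give at the depths of these libraries. The median region held 2 reads in each IgG library, and a region with equal counts there lies above equality. Neither median therefore shows a shift of the typical region. After dividing the Stat5b ratio by the IgG ratio, over the 26508 regions with reads in all 4 libraries, the median log2 ratio was 1.10 (2.14-fold), and 74.8% lay above 0. That value moved with the IgG reads used. With IgG reads of 25 bp alone it was 0.07, over 10663 regions. Such IgG reads numbered 3787690 at 13 h and only 1315025 after 2 rounds. At these depths equal read counts already give an IgG ratio well above 1, and regions without a read are left out. The kind of read and the low, unequal depth cannot be told apart here. With IgG of all stages pooled the net median was 1.37. The same pooled IgG for both stages cancels, so this is the Stat5b ratio without a correction.

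A region was called higher after 2 rounds when the interval of its ratio of RPM lay wholly above 2, and lower when it lay wholly below 0.5. For Stat5b, 10995 regions (25.1% of 43766) were called higher and 279 (0.637%) lower. The same rule applied to IgG called 282 regions (0.644%) higher and 40 (0.0914%) lower. The median region held 2 reads in each IgG library, against 9 at 13 h and 22 after 2 rounds for Stat5b. So few reads make a call hard to reach at any ratio, and the IgG shares here and below are not a matched background rate. On distinct starts, 6483 regions (14.8%) were called higher for Stat5b and 29 (0.0663%) lower, against 26 (0.0594%) and 2 (0.00457%) for IgG. Calls made on both countings numbered 6258 higher and 26 lower. These counts are relative to all mapped reads: with the libraries scaled so that the median region is equal, which shifts the log2 ratio by -1.37, 1662 regions were called higher and 2420 lower, so that the share of calls that were higher went from 97.5% to 40.7%. The rule reaches falls less easily than rises in weak regions: against 0 reads in the other library, a lower call needs 11 reads at 13 h, which 46.7% of regions had, and a higher call needs 8 late reads, which 78.0% had. At the threshold, the 206 regions just inside had a median of 7 reads at 13 h and 28 after 2 rounds, and the 132 just outside had 19 and 55.

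**Figure D1:**
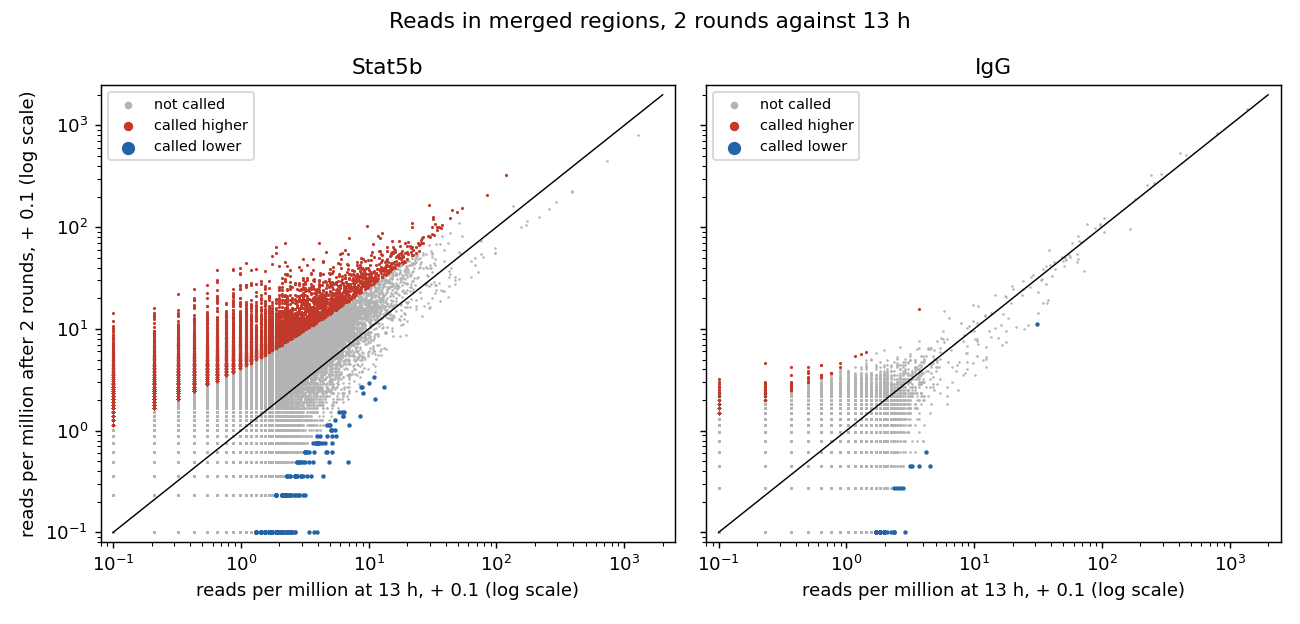
Each point is 1 of the 43734 merged regions that are not heaped, with reads per 1000000 at 13 h on the x axis and after 2 rounds on the y axis (both log scales, 0.1 added), for Stat5b on the left and IgG on the right, 1 library each; the line marks equal levels. Stat5b regions called higher (10993 without heaped regions) lie above the line over most of the range of levels. Those called lower (275) are few and weak. IgG points scatter to both sides of the line, with log2 quartiles of -0.62 and 1.19 over the 27838 regions with IgG reads at both stages.

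The regions called higher were mostly weak at 13 h and peaks of the late list only. Their median Stat5b level was 0.553 RPM at 13 h (5 reads) and 4.57 RPM after 2 rounds (35 reads), beside 0.399 and 0.518 RPM for IgG and 0.722 and 1.81 RPM for Stat5a. Of the 10995, 1455 had 0 Stat5b reads at 13 h. The deposited Stat5b list of 2 rounds held 10887 of them, against 72.2% of all regions, and that of 13 h held 14.3%, against 27.8%. A single list held 58.5% of them and 63.3% of all regions. IgG was called higher in 109 of them. The regions called lower had a median of 17 reads at 13 h and 0 after 2 rounds. Of these 279, 91.8% were in the 13 h Stat5b list and 75.6% in a single list, and their median width was 283 bp against 488 bp for all regions.

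Membership in the Stat5b lists, which were called from the libraries compared, is given only as a description. The Stat5b list held 13268 peaks with a median width of 364 bp at 13 h and 33692 peaks with a median width of 562 bp after 2 rounds. In the 9222 regions with a Stat5b peak at both stages, the median went from 3.65 to 7.05 RPM, and 1575 (17.1%) were called higher and 5 lower. In the 22383 regions with a late peak only it went from 0.885 to 3.27 RPM, with 9312 (41.6%) called higher and 0 lower. In 23.5% of these late-only regions the interval of Stat5b over IgG already lay above 1 at 13 h, against 94.0% after 2 rounds, so a region without a 13 h peak was not always without signal at 13 h. In the 2944 regions with a 13 h peak only it went from 1.77 to 0.914 RPM, with 0 called higher and 251 (8.53%) lower. The 9217 regions with no Stat5b peak at either stage come from the Stat5a lists and the Stat5b 8 h list. Their median was 0.111 and 0.131 RPM and their summed ratio 0.874 (0.864 to 0.885), with 108 called higher and 23 lower.

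The 22140 regions built from the 3 Stat5a lists alone give a choice of regions that did not use either Stat5b library. In these, Stat5b was called higher in 4085 (18.5%) and lower in 79 (0.357%), and IgG in 97 (0.438%) and 20 (0.0903%). The gain differed with the stage at which Stat5a had a peak (heaped regions left out). In the 5661 regions with a Stat5a peak after 2 rounds only, mean Stat5b went from 0.855 to 3.87 RPM, a ratio of 4.52 (4.48 to 4.57), with IgG at 0.289 and 0.318 RPM. Where Stat5a had peaks at 13 h and 2 rounds (1401 regions), the ratio was 3.31 (3.27 to 3.35). In the 1966 regions with a Stat5a peak at all 3 stages, the ratio was 2.00 (1.99 to 2.02), the median being 6.31 RPM at 13 h and 12.7 RPM after 2 rounds. In the 464 with peaks at 8 h and 2 rounds it was 1.34 (1.31 to 1.36), at mean IgG levels of 4.16 and 4.30 RPM, the highest of these sets.

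Where Stat5a had an early peak but no late one, Stat5b gained less than where Stat5a had a late peak only. The ratio was 1.08 (1.06 to 1.10) in the 2076 regions with a Stat5a peak at 8 h only and 1.21 (1.19 to 1.23) in the 864 with peaks at 8 h and 13 h, beside IgG ratios of 1.07 and 0.938. In the 9693 regions with a Stat5a peak at 13 h only it was 1.68 (1.66 to 1.69), at mean levels of 0.638 and 1.07 RPM. IgG in the same regions had a ratio of 1.61 (1.57 to 1.65), at 0.170 and 0.274 RPM, so there the Stat5b gain was little larger than that of IgG. The intervals of the Stat5b ratio did not overlap between the late-only regions and any of these 3 sets. A late Stat5a peak did not always go with the larger ratio. The 1.68 of the 13 h only set was above the 1.34 (1.31 to 1.36) of the set with peaks at 8 h and 2 rounds.

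Grouped by their Stat5a level at 13 h into 5 classes of 4425 regions, the same regions had larger ratios in the lower classes. The choice of regions favours this order, because a region with little Stat5a at 13 h can be in the set through a Stat5a peak at 2 rounds or 8 h. From the lowest class to the highest, mean Stat5b at 13 h was 0.591, 0.652, 0.709, 1.25 and 6.44 RPM, and after 2 rounds 2.41, 2.00, 1.72, 2.95 and 11.8 RPM. The gain in RPM itself was largest in the highest class. The ratios were 4.07 (4.01 to 4.13), 3.07, 2.43, 2.36 and 1.82 (1.81 to 1.83), and on distinct starts 3.96, 2.97, 2.40, 2.32 and 1.97. The intervals of neighbouring classes did not overlap, though those of the third (2.40 to 2.47) and the fourth (2.34 to 2.39) nearly met. The share of regions called higher had no single direction, at 31.4%, 16.2%, 9.79%, 13.3% and 21.6%. IgG ratios were 1.11, 1.33, 1.46, 1.37 and 1.06, with their high point in the middle class. These classes and the sets by Stat5a list divide the same regions, so they are not separate evidence.

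**Figure D2:**
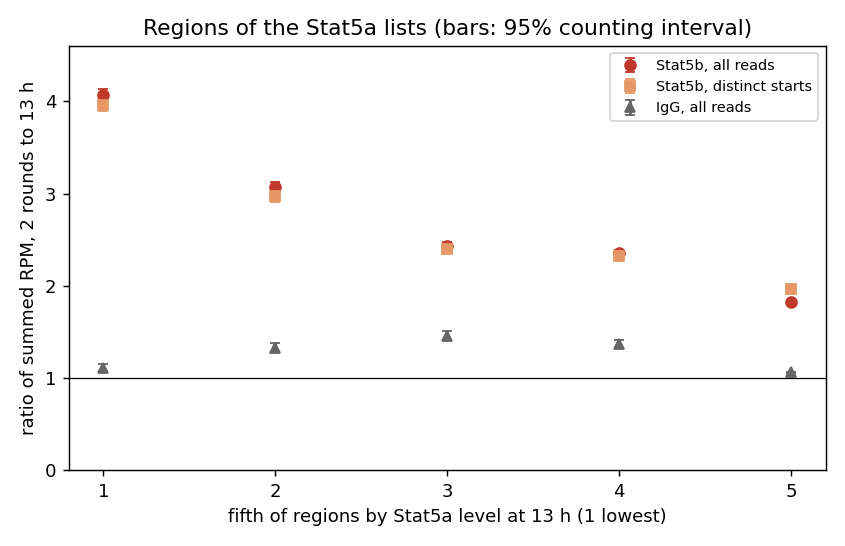
The x axis gives the 5 classes of 4425 regions by Stat5a level at 13 h (1 is the lowest) and the y axis the ratio of summed reads per 1000000, 2 rounds to 13 h, with bars for the 95% counting interval, over 1 library per point and stage. The Stat5b ratio goes from 4.07 in the lowest class to 1.82 in the highest, while IgG stays between 1.06 and 1.46.

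The strongest Stat5b regions of the early stage were also among the strongest of the late stage, and most had gained. Of the 10 regions with the most Stat5b above IgG at each stage, 7 were the same. Heaped regions set aside, the strongest at both stages lies in the cluster at Cish, on chromosome 9 from 107153387 to 107156833. It held 119 RPM of Stat5b at 13 h and 322 RPM after 2 rounds, against 8.37 and 3.63 RPM of IgG, a ratio of 2.70 (2.52 to 2.91). On distinct starts the ratio was 1.83 (1.64 to 2.04), so this region was not called on that counting. The reads there began at 870 distinct starts of 2467 reads after 2 rounds and at 546 of 1077 at 13 h, and how far repeated starts are copies was not tested.

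The second strongest at both stages, at Bcl6 on chromosome 16 from 23902784 to 23905036, went from 84.2 to 205 RPM (2.44, interval 2.24 to 2.66), with IgG at 1.86 and 2.25 RPM. A region of chromosome 17 from 34812280 to 34813817 went from 53.9 to 156 RPM (2.89, 2.60 to 3.21). For it Stat5a went from 34.8 to 29.5 RPM, and as the Stat5a interval (0.704 to 1.02) includes equality, no direction is shown for Stat5a. On distinct starts the Stat5b ratio was 1.99 (1.69 to 2.34) in this region and 1.90 (1.66 to 2.17) at Bcl6. Neither was called on that counting. At Socs2, whose product dampens cytokine and growth hormone signals, the region on chromosome 10 from 94844625 to 94848058 went from 29.5 to 164 RPM. Its ratio of 5.56 (4.86 to 6.36) was the largest among the 10 strongest late regions, and IgG stood at 3.32 and 4.15 RPM. Distinct starts gave 3.37 (2.84 to 4.01). A pair of regions in the interval of Socs1 and Clec16a on chromosome 16 went from 45.0 to 148 RPM (10552338 to 10554126) and from 43.5 to 124 RPM (10685041 to 10686553). Their ratios were 3.29 (2.93 to 3.69) and 2.84 (2.53 to 3.21). On distinct starts they were 2.64 (2.23 to 3.14) and 2.32 (1.94 to 2.79), the latter not called on that counting.

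Of the 10 strongest late regions 9 were called higher, 5 of them also on distinct starts, beside 25.1% of all regions on all reads. Ranking by the late level favours higher calls, as do high read counts, so these counts are a description. Of the 10 strongest at 13 h, 6 were called higher, 2 of them also on distinct starts. The exception among the late 10 was on chromosome 11 from 3091075 to 3094543, with 134 and 162 RPM of Stat5b, a ratio of 1.21 (1.12 to 1.31). IgG was high there too, at 55.9 and 50.3 RPM.

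Among the 100 regions with the highest mean level above IgG over the 2 stages, the ratio varied. That ranking used both Stat5b libraries, so the counts are a description. All 100 intervals lay above 1 on all reads and 99 on distinct starts, and 71 were called higher (42 on distinct starts) and 0 lower. Ratios ran from 1.19 to 33.0 with a median of 2.78 and quartiles of 2.26 and 3.55. Summed over the 100 regions the ratio was 2.76 (2.72 to 2.80), with 2.36 (2.31 to 2.41) from distinct starts, and IgG over the same regions was at 0.970 (0.909 to 1.04). The intervals of 29 regions lay above the summed ratio and those of 30 below it, so 59 of 100 differed from it by more than counting error of all reads. On distinct starts 44 of 100 did. Of the 100, 93 were in all 6 peak lists. Scaled by the median region, 8 of them were called higher, and scaled by reads outside the regions 83.

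At the low end of these 100, Stat5b on chromosome 8 from 84398358 to 84399721 stood at 38.7 and 46.1 RPM, a ratio of 1.19 (1.02 to 1.38), with 1.10 (0.893 to 1.35) from distinct starts. On chromosome 2 from 11087414 to 11088642 it stood at 33.2 and 42.4 RPM, a ratio of 1.28. In the interval of Ctla4 and Icos, which encode a brake and a costimulator of T cells, the region on chromosome 1 from 60990082 to 60991533 stood at 53.3 and 81.0 RPM (1.52, 1.35 to 1.71). It ranked 5 at 13 h and was not among the 10 strongest late regions.

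At the high end, a rule added after the values were seen gives the 5 largest ratios of the 100. The largest, on chromosome 15 from 25387719 to 25389461, went from 2.10 RPM (19 reads) to 69.3 RPM (531 reads), which is 33.0-fold (20.9 to 55.2) and, on distinct starts, 27.1-fold (15.3 to 53.1). IgG stood at 1.06 and 1.73 RPM, and Stat5a rose in the same region with a ratio of 18.8 (10.9 to 34.9). On chromosome 16 from 10781981 to 10782845, at the edge of the interval named for Socs1 and Clec16a, Stat5b went from 3.98 to 70.4 RPM (17.7, 12.6 to 25.5). It stood 3.33-fold above IgG at 13 h (1.57 to 7.86) and 81.5-fold after 2 rounds (34.7 to 252). On chromosome 1 from 192823499 to 192825507 it went from 6.86 to 78.5 RPM (11.4, 8.80 to 15.1). On chromosome 5 from 118755437 to 118756771 it went from 9.63 to 103 RPM (10.6, 8.52 to 13.4), and on chromosome 6 from 137522799 to 137523788 from 11.8 to 82.4 RPM (6.96, 5.66 to 8.62). All 5 were called on distinct starts as well, and 4 had a Stat5b peak at 13 h.

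**Figure D3:**
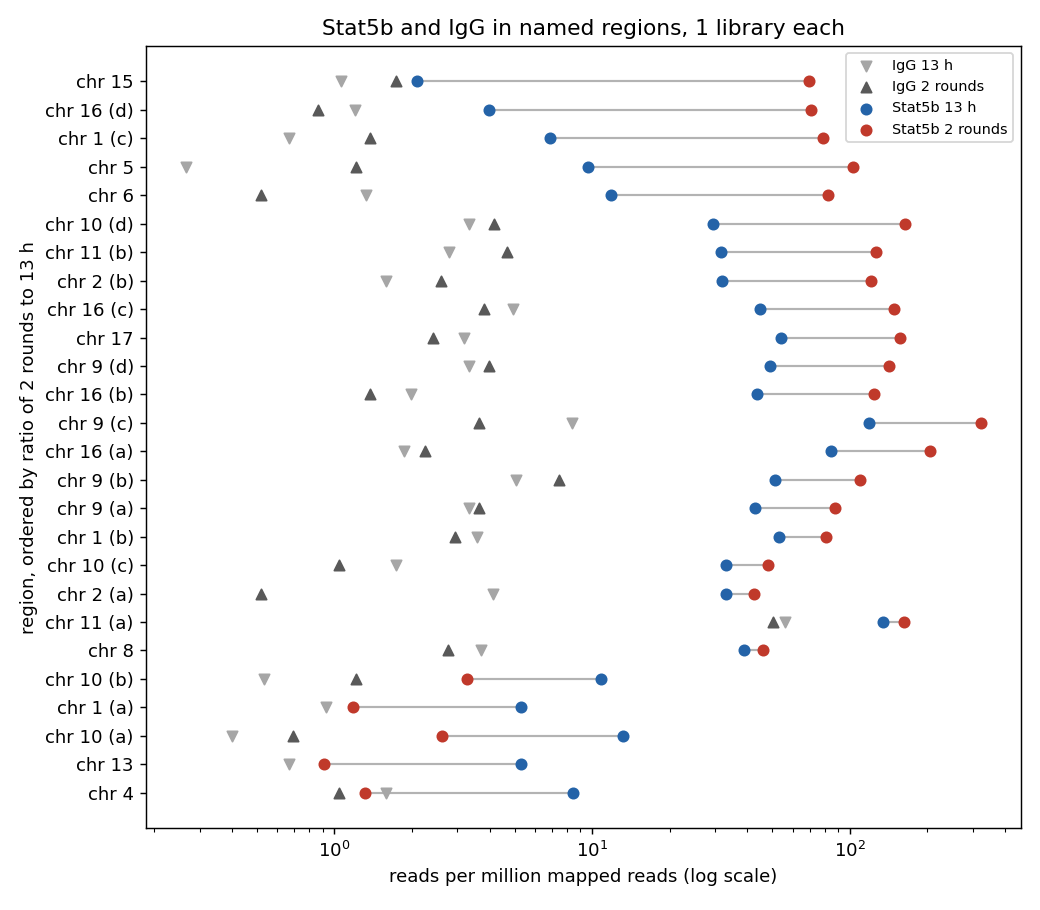
Each line is 1 region, by chromosome (letters tell apart regions of 1 chromosome) and ordered by ratio. Shown are the 10 strongest of each stage, the 5 lowest and 5 highest ratios of the 100 strongest, and the 5 largest falls in fold. Not all of them are named in the text. Circles give Stat5b and triangles IgG in reads per 1000000 on a log x axis, 1 library each, and a library with 0 reads has no symbol. In the region of chromosome 15 Stat5b goes from 2.10 to 69.3 while IgG stays at or below 1.73, and in that of chromosome 9 marked (c) from 119 to 322.

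Ranking by ratio puts regions without a read at 13 h first. The 10 so ranked on distinct starts, among 2871 regions called on both countings with at least 30 late starts, all had 0 reads at 13 h, as had 22 of the 2871. The first, on chromosome 19 from 58411080 to 58411712, had 0 reads at 13 h and 110 after 2 rounds (14.4 RPM), at least 43.3-fold higher when 3 reads are taken as the floor of the 13 h library. On distinct starts this fold was 23.8, and the lower limit of the counting interval, which is a different bound, was 34.6 on all reads. IgG had 5 and 7 reads there, and Stat5a 4 and 26. On chromosome 2 from 152041124 to 152041840 the reads were 0 and 90, at least 35.4-fold higher, and on chromosome 12 from 73622441 to 73622869 they were 0 and 81, at least 31.9-fold higher, with 21.1 and 18.0 on distinct starts in these regions. None of the 10 had a Stat5b peak at 13 h.

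With at least 3 starts required at 13 h, a limit added after the values were seen, the first region was on chromosome 14 from 67907799 to 67908973. It had 11 reads at 13 h and 294 after 2 rounds (31.5, 17.4 to 63.9), against 6 and 1 reads of IgG. On chromosome 8 from 123888786 to 123889808 the reads were 5 and 289 (68.2, 28.9 to 212), and on chromosome 13 from 13429529 to 13430559 they were 7 and 298 (50.2, 24.1 to 126). In these 3 regions Stat5b at 13 h did not exceed IgG of that stage beyond counting error, the intervals of that ratio being 0.518 to 5.03, 0.224 to 5.25 and 0.225 to 2.30. After 2 rounds these intervals were 39.6 to 8806, 13.7 to 63.8 and 13.0 to 55.3.

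Falls were few, under a rule that needs more reads at 13 h to find them. There were 5 regions with at least 30 starts at 13 h were called lower on both countings, each with a Stat5b peak at 13 h. On chromosome 10 from 21008204 to 21009198, a region found in all 6 lists, Stat5b went from 119 reads (13.2 RPM) to 20 reads (2.61 RPM). The ratio was 0.198 (0.117 to 0.320) with IgG at 0.399 and 0.691 RPM. Distinct starts gave 0.275 (0.149 to 0.479). Stat5a stood there at 5.78 and 5.72 RPM, a ratio of 0.990 (0.629 to 1.55), so its level differed by less than counting error. On chromosome 4 from 32783825 to 32784332 Stat5b went from 76 to 10 reads (0.155, 0.0716 to 0.301), and Stat5a from 24 to 2 reads (0.104, 0.0119 to 0.420). The others were on chromosome 13 from 112899559 to 112900086 (48 to 7 reads, 0.172), on chromosome 1 from 162143956 to 162144779 (48 to 9 reads, 0.221) and on chromosome 10 from 95837100 to 95837990 (98 to 25 reads, 0.301). In the last, Stat5b stood 20.4-fold above IgG at 13 h (7.72 to 76.4) and 2.70-fold after 2 rounds (1.14 to 7.39).

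Ranked by the size of the loss above IgG instead, only 3 of the 10 largest losses held on distinct starts. The first, on chromosome 1 from 12629906 to 12630135, had Stat5b at 11.1 and 1.96 RPM but IgG at 5.71 and 15.0 RPM, and its ratio on distinct starts was 0.541 (0.202 to 1.32). The second, 45 bp wide on chromosome 7 from 80426514 to 80426558, had IgG at 3.59 and 15.7 RPM. The heaped region near Il4ra, the gene of the series' title, is on chromosome 7 from 125339709 to 125340091. It had 133 RPM at 13 h and 55.6 RPM after 2 rounds, a ratio of 0.420 (0.375 to 0.469), with IgG at 56.3 and 15.0 RPM. On distinct starts its ratio was 1.05 (0.421 to 2.61), so that fall lies in reads that share a start, and IgG fell with it.

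Regions found in at least 2 lists and less than 10 kb apart were joined into groups, which puts 16032 regions into 11301 groups, 208 of them with 5 or more members. In the 10 groups with the most Stat5b above IgG, the summed ratio ran from 1.66 to 2.80, and 0 members were called lower on all reads. The strongest group, at Cish on chromosome 9 from 107152367 to 107172446, has 7 members and went from 242 to 598 RPM (2.47, 2.35 to 2.60), with IgG at 23.5 and 16.8 RPM. Its 3 strong members had ratios of 2.70, 2.88 and 2.04. Its 4 weak members had ratios from 1.12 to 1.67, and the interval of the lowest (0.689 to 1.81) includes equality. On distinct starts this order did not hold, the strong members having 1.83, 2.60 and 1.87 and 1 weak member 2.04.

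The group at Il2ra on chromosome 2 from 11533859 to 11581322 has 14 members and went from 192 to 335 RPM, a ratio of 1.74 (1.64 to 1.85), against 19.5 and 25.7 RPM of IgG. Its members moved unequally. At one edge, the region from 11533859 to 11534393 had 2 reads at 13 h and 44 after 2 rounds (26.0, 6.77 to 221), and its neighbour from 11534496 to 11535493 went from 16.3 to 51.3 RPM (3.16, 2.60 to 3.84). The region from 11572730 to 11573988, the strongest of the group at 13 h, stood at 27.9 RPM at both stages (interval of the ratio 0.831 to 1.21). The region from 11540348 to 11541593 went from 17.5 to 8.49 RPM (0.485, 0.358 to 0.652) and had 0.604 (0.405 to 0.888) from distinct starts, lower but not past the threshold for a call. Its interval did not overlap those of the gaining regions on either side, from 11537614 to 11538683 (2.23, 1.73 to 2.90) and from 11542887 to 11544305 (2.87, 2.28 to 3.64).

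The group in the interval of Ctla4 and Icos on chromosome 1, from 60966625 to 61007352, went from 107 to 178 RPM (1.66, 1.53 to 1.81). Its 9 members ran from 0.262 (0.118 to 0.528) to 9.44 (3.73 to 30.6). In the interval of Socs1 and Clec16a, the 15 regions on chromosome 16 from 10660970 to 10702654 went from 112 to 314 RPM (2.80, 2.60 to 3.02). There 6 of 15 members were called higher, among them 4 that stood at 1.99, 2.32, 6.42 and 3.87 RPM at 13 h and at 14.5, 14.6, 31.9 and 24.4 RPM after 2 rounds. At Bcl2 on chromosome 1 from 108412837 to 108448595, 9 regions went from 117 to 254 RPM (2.17, 2.01 to 2.34). At Bcl6, the 5 regions from 23896424 to 23913576 went from 96.3 to 230.1 RPM (2.39, 2.20 to 2.60).

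**Figure D4:**
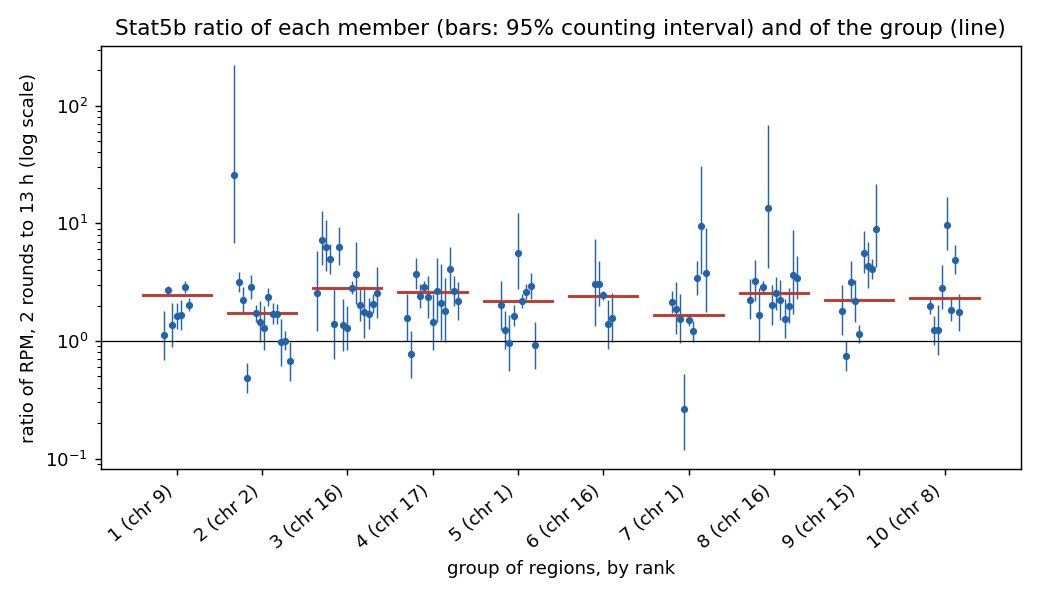
The x axis gives the 10 strongest groups of regions, by rank and chromosome. Points give the Stat5b ratio (2 rounds to 13 h, log y axis) of each member with at least 30 Stat5b reads over the 2 stages. Members are in order of position, with bars for the 95% counting interval. The red line is the ratio of the summed group, with all its members. Group lines lie between 1.66 and 2.80, while members of the second group run from 0.485 to 26.0.

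Around region centres the Stat5b signal was higher after 2 rounds. Centres were set from Stat5a starts moved 50 bp inward in 4983 regions, so that neither Stat5b library placed them. The forward and reverse peaks lay 50 bp to either side in all 4 libraries. How far the choice of centres sets this distance was not tested, so no meaning is given to it. The highest level went from 14.8 to 33.1 distinct starts per 1000000 per kb, both strands summed, and the flanks (800 to 1000 bp away) from 1.39 to 2.60. The height over the flank was 10.6 at 13 h and 12.7 after 2 rounds, and the width midway between the flank and that height 240 and 280 bp. IgG at the same centres stood at 2.79 and 2.90, with flanks of 0.704 and 0.889, so the centres were also above their flanks in IgG.

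**Figure D5:**
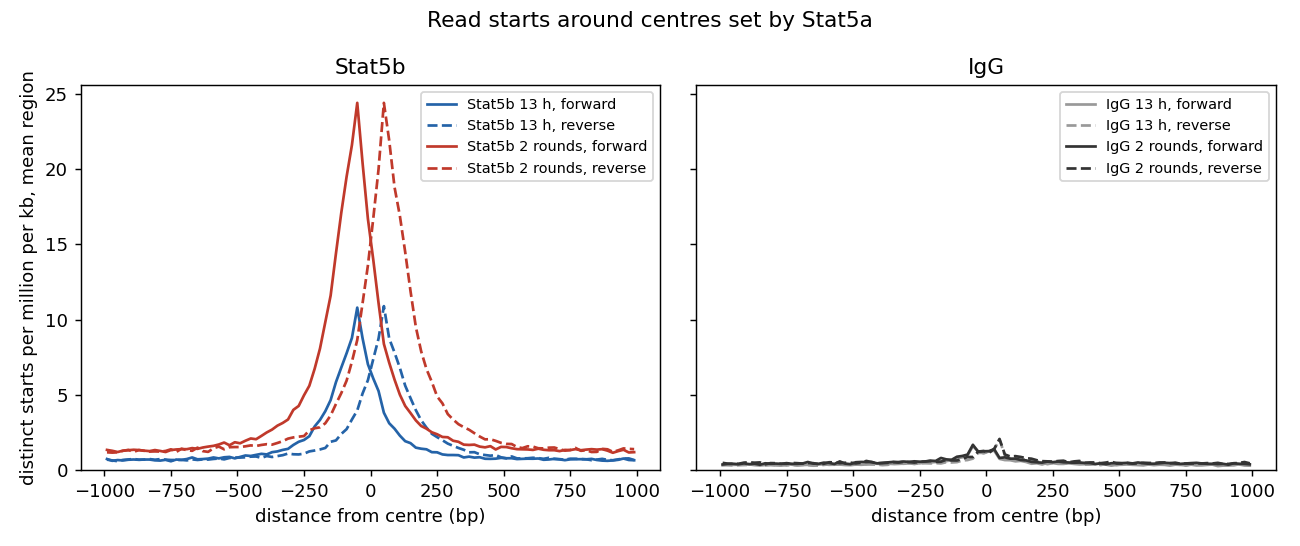
Mean distinct starts per 1000000 per kb (y axis) against the distance in bp from centres set by Stat5a (x axis), over 4983 regions, for forward (solid) and reverse (dashed) starts, Stat5b on the left and IgG on the right, 1 library each. With both strands summed, Stat5b is at 14.8 at 13 h and 33.1 after 2 rounds, and IgG at 2.79 and 2.90.

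Late Stat5b reads were less concentrated in the top regions, in merged regions that are mostly peaks of the late library. Without heaped regions, the 1% of regions with the most reads held 16.6% of Stat5b reads in regions at 13 h and 11.8% after 2 rounds, while in IgG they held 29.7% and 26.5%. In the regions of the Stat5a lists, chosen without either Stat5b library, the shares were 23.1% and 15.5% for Stat5b and 53.9% and 49.3% for IgG. On distinct starts there they were 12.8% and 11.3% for Stat5b and 21.4% and 17.6% for IgG, so on that counting IgG moved the same way and at least as far. Levels over 43734 regions had a Spearman correlation of 0.69 between the Stat5b libraries. It was 0.50 between the IgG libraries, and 0.57 at 13 h and 0.63 after 2 rounds between Stat5b and IgG of the same stage. All these pairs share region width and mappability, and the libraries differ in reads per region.

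Among regions with a late Stat5b peak only, those called higher lay farther from 13 h peaks than those not called. The 5318 of them called higher on both countings had a median distance of 36.5 kb to the nearest Stat5b peak of 13 h, 25.2% of them lying within 10 kb and 26.1% beyond 100 kb. Of the 12868 not called, 32.6% lay within 10 kb and 18.1% beyond 100 kb. The 9217 regions in neither Stat5b list lay farther still, at a median of 45.6 kb, with 23.9% within 10 kb and 34.8% beyond 100 kb. A higher call favours regions with few 13 h reads, and the 13 h peaks come from that same library. The order of called and not called regions is therefore only a description. By chromosome, the share of regions called higher ran from 18.4% on chromosome X to 30.8% on chromosome 13. Chromosome X also held a smaller share of all Stat5b reads after 2 rounds, 3.74% against 4.63% at 13 h, with IgG at 4.95% and 5.40%. Outside the regions its Stat5b ratio was 0.775, the lowest of the chromosomes, against 0.959 on chromosome 11. Relative to reads outside the regions of the same chromosome, its ratio in regions was 2.88, within the range of 2.13 to 2.98 over the chromosomes.

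Stat5a between the same stages moved with Stat5b in part of the regions. By the same rule 3359 regions (7.67%) were called higher for Stat5a and 1739 (3.97%) lower, and on distinct starts 1120 (2.56%) and 26 (0.0594%). On distinct starts, 802 regions were called higher for both factors, while 5681 were called higher for Stat5b and not called for Stat5a, and 318 the other way round. On that counting Stat5b was called higher in 14.8% of all regions. There were 0 calls in opposite directions, which says little, as only 29 regions were called lower for Stat5b and 26 for Stat5a. On all reads, 2082 were called higher for both, 28 higher for Stat5b and lower for Stat5a, and 2 the reverse. The Stat5a library after 2 rounds holds fewer reads in these regions, 9.16% of its total, so a missing Stat5a call does not show that the factors differ there, and the difference itself was not tested.

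Outside the regions, 2324102 windows of 1 kb held 88.3% of Stat5b reads at 13 h and 76.0% after 2 rounds. On distinct starts, 649 of these windows (0.0279%) were called higher for Stat5b and 40 (0.00172%) lower, against 247 (0.0106%) and 6 (0.000258%) for IgG. With all reads counted, Stat5b gave 12062 higher and 10877 lower calls and IgG 7013 and 2802, so most calls outside the regions were lost when each start was counted once.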

How the data were processed

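For each of the 9 libraries the authors deposited their mapped reads, 1 line per read with its position on mm8, strand and mismatch class, which are positions in bp and not normalized. Each ChIP library has a deposited list of peaks by the authors, with start and end in bp and no score. Aligner, peak caller and threshold: not given in the sources used here. The labels count 22 lanes. Nothing in them says that libraries came from separate animals.

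Read 5′ ends were counted in the merged regions as reads per 1000000 mapped reads, with all reads and with 1 read per start and strand. Reads of 24 bp were moved 1 bp upstream at their 5′ end. Ratios carry exact conditional (Clopper-Pearson) 95% intervals, and a region with 0 reads was set at a floor of 3 reads per library for a fold. There is no p-value, as each group has 1 library. The calling was tested on simulated data with Python 3.11.15, numpy 2.4.6, pandas 2.3.3 and scipy 1.17.1, and matplotlib 3.10.9 drew the plots.

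Named regions are the 10 strongest of each stage, up to 10 per direction with the largest ratio on distinct starts (at least 30) or the largest difference, the 5 lowest ratios among the 100 strongest, and the 10 strongest groups. By that rule gene names needed an annotation of mm8, which was not used here, so the locus labels stand outside it. Regions, rules and lists were chosen with earlier results of these data known. Alternatives were other scalings, distinct starts, other region sets, the middle 400 bp, reads moved 75 bp downstream, equal depth, reads without mismatches, a 99% interval, a 1.5-fold threshold and other IgG reads.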

Additional observations from a re-analysis of the deposited data

Results flagged for a closer look

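Outside all merged regions, which the comparisons of regions do not use, 649 windows of 1 kb were called higher for Stat5b after 2 rounds on distinct starts, above the 247 of IgG. The window with the most late starts, on chromosome 11 from 4171000 to 4171999, had 5 distinct Stat5b starts at 13 h and 33 after 2 rounds (7.59, 2.94 to 24.9), and IgG had 9 and 15. On chromosome 9 from 96615000 to 96615999 they were 3 and 28 (10.7, 3.31 to 55.2), with IgG at 3 and 2.

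In IgG after 2 rounds, 62191 reads, 1.07% of the library, began at 1 position of chromosome 16, 60832754. IgG at 13 h had 3 reads there, and Stat5b 16 at 13 h and 33 after 2 rounds. At 8 h the start held 140061 reads in Stat5b (2.04% of the library) and 78604 in IgG (1.26%), and 14 in Stat5a. The cause was not tested, and the IgG shares are therefore given with and without heaped regions.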

How the results depend on the processing

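Relative to 10995 regions called higher and 279 lower, scaling by the median ratio gave 1662 and 2420, distinct starts 6483 and 29, regions in at least 2 lists 4559 and 68, regions of the Stat5a lists 4085 and 79, and a 1.5-fold threshold 16911 and 599. Lower calls were 170 on reads without mismatches and 98 with a 99% interval. Changing 2 choices at once, an addition made with the data in view, gave 2641 and 10 (distinct starts in regions of the Stat5a lists) and 9 lower calls (distinct starts scaled by starts outside the regions). In the order outside reads, regions in at least 2 lists, Stat5a lists, middle 400 bp, moved reads, no mismatches and the 2 added settings (outside, Stat5a lists), the median log2 ratio was 1.56, 1.17, 1.10, 1.34, 1.34, 1.32, 1.55 and 1.08, against 1.37. The ratio of shares was 2.68, 2.22, 2.15, 2.32, 2.33, 2.39, 2.80 and 2.28, and on distinct starts 2.47, against 2.35. Scaling by the median sets the median log2 ratio to 0.00 by construction. Against 1.10, the median net of IgG was 0.86 in regions in at least 2 lists and 1.13 with all 4 libraries thinned. With 25 bp IgG reads alone it was 0.07, where reads were few and unequal in number between the stages, and the cause was not tested. Pooled IgG gave 1.37, which by construction is the Stat5b ratio without a correction. Equal depth and leaving out heaped regions kept each of the 4 main values within 1.5-fold or the interval. No direction was reversed except the split of calls under the median scaling. No paired analysis was possible because each group has 1 library. Replicates could not be left out for the same reason, and the median region held 9 reads at 13 h and 22 after 2 rounds, so folds of single weak regions are imprecise.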
